A study of Mus musculus with 9 samples.

Results

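The 31 genes described here encode enzymes and factors that let mitochondria make protein. They are 15 mitochondrial aminoacyl-tRNA synthetases, 4 proteins that convert charged tRNAs, 2 initiation factors, 4 elongation factors with Guf1 among them, 4 release and recycling factors, and 2 GTPases of the mitochondrial ribosome. They were chosen by gene symbol out of the 47729 genes in the count files. Lars2, the mitochondrial leucyl-tRNA synthetase, was left out because its counts may hold reads of ribosomal RNA.

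RNA of dissected midbrain was sequenced from mice of 180 postnatal days with 0, 1 or 2 floxed Dot1l alleles, here called controls (Dot1l(+/+)), heterozygotes (Dot1l(fl/+)) and homozygotes (Dot1l(fl/fl)). Dot1l encodes a methyltransferase of histone H3. All mice, controls included, were C57/Bl6 and carried Pitx3-Cre/+ and Rosa-lox-stop-lox-Yfp. Cre came from the Pitx3 locus, which in the midbrain is active in dopamine (DA) neurons, and the dissected tissue also holds many cells in which it is not active. There were 3 libraries for each genotype, and tissue of 3 mice was pooled for each of them, with the genotypes matched by litter. The question was which of these genes differed in transcript level between the genotypes.

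Mitochondria translate the few proteins of their own genome on their own ribosomes. A synthetase joins each amino acid to its tRNA, initiation factors place the formylated methionine tRNA at the start codon, elongation factors deliver further tRNAs and move the ribosome, and release and recycling factors end the round. The 31 genes lie in the nucleus, and their products are imported.

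The library totals lay between 16422135 and 28403218 counts. Dot1l itself was at 85.2, 80.2 and 85.1 CPM (counts scaled to the library's size after TMM normalisation) in controls, at 84.2, 60.6 and 75.6 in heterozygotes, and at 82.1, 73.9 and 82.9 in homozygotes. These ranges overlapped, and since the counts cover the whole gene and not the floxed exon alone, they do not measure the recombination. The chi-square per degree of freedom between replicates, 1 where only counting error is present, was 4.24 to 15.4, with the highest values, 14.2 and 15.4, in both pairs that hold heterozygote replicate 2. Markers of hypothalamic neuropeptide neurons summed to 123 CPM in heterozygote replicate 1 and to 55.9 CPM in replicate 3, against 0.945 to 8.37 CPM in the other 7 libraries. The labels name midbrain dopamine neurons as well as dissected tissue, and the series' design text describes sorted cells of an embryonic stage, but 8 oligodendrocyte markers summed to 10200 to 11720 CPM and 10 dopamine neuron markers to 473 to 692 CPM, so the samples were read as whole tissue.

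The median of the 31 genes was near 0 in each comparison. The lowest p of the 31 over the 3 comparisons was that of Guf1, in heterozygotes against controls. In homozygotes against controls the lowest was that of Mtrf1l. The study had already reported Guf1 as down-regulated in these heterozygotes, so its low p here is no independent support. Guf1 is the GTPase related to bacterial elongation factor 4. Its mean was 65.8 ± 4.60 CPM in controls, 51.3 ± 3.22 CPM in heterozygotes and 61.7 ± 0.780 CPM in homozygotes (SD, n = 3). All 31 genes had counts and passed the filter on low counts, with 104 to 1954 counts per gene and library. Together they took 696 to 719 CPM in controls, 674 to 698 CPM in heterozygotes and 701 to 714 CPM in homozygotes.

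With edgeR's quasi-likelihood test, 0 of the 31 genes passed an adjusted p of 0.05 in any comparison, and the background over all 17671 genes tested was 0.0% each time. DESeq2 on all 9 libraries called 1 of the 31, Guf1 in heterozygotes against controls, and 7 of the 14038 genes given an adjusted p, a background of 0.0499%. With the replicate number as a block, edgeR called 0, 3 and 3 of all genes in heterozygotes against controls, homozygotes against controls and homozygotes against heterozygotes, and 0 of the 31. At an unadjusted p under 0.05, Guf1 and Mars2 were lower in heterozygotes than in controls and none of the 31 was higher, so 6.45% of the members met that level against 8.39% of all genes. Mtrf1l was higher and none was lower in homozygotes against controls, 3.23% against 3.93% of all genes. In homozygotes against heterozygotes, Guf1 was higher, 3.23% against 6.48% of all genes. These shares were below those of all genes in each comparison.

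The 3 libraries of heterozygotes did not overlap with those of controls for 4 of the 31 genes, with Rars2 and Pars2 higher and Mars2 and Guf1 lower, against 13.3% of all genes tested. In homozygotes against controls this held for 5 genes, with Yars2, Gfm1, Mtrf1l and Mtg1 higher and Mars2 lower, against 10.3% of all genes. In homozygotes against heterozygotes it held for 4 genes, with Guf1, Mtrf1l and Mtg1 higher and Nars2 lower, against 11.1% of all genes. The members' shares were 12.9%, 16.1% and 12.9%. The comparisons with controls share the same 3 control libraries.

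The median log2 fold change of the 31 genes was 0.02 in heterozygotes against controls, with 16 genes above 0 and 15 below, beside a median of -0.0034 over all genes. In homozygotes against controls it was -0.0078, with 15 above and 16 below, beside 0.0009 over all genes. In homozygotes against heterozygotes it was 0.04, with 19 above and 12 below, beside 0.0015. The 95% intervals of the fold change lay within -0.5 and 0.5 on the log2 scale for 31, 30 and 31 genes in these 3 comparisons, and within -0.3 and 0.3 for 19, 19 and 21. The exception at 0.5 was Mtrf1l, whose interval in homozygotes against controls reached 0.51.

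**Figure D1:**
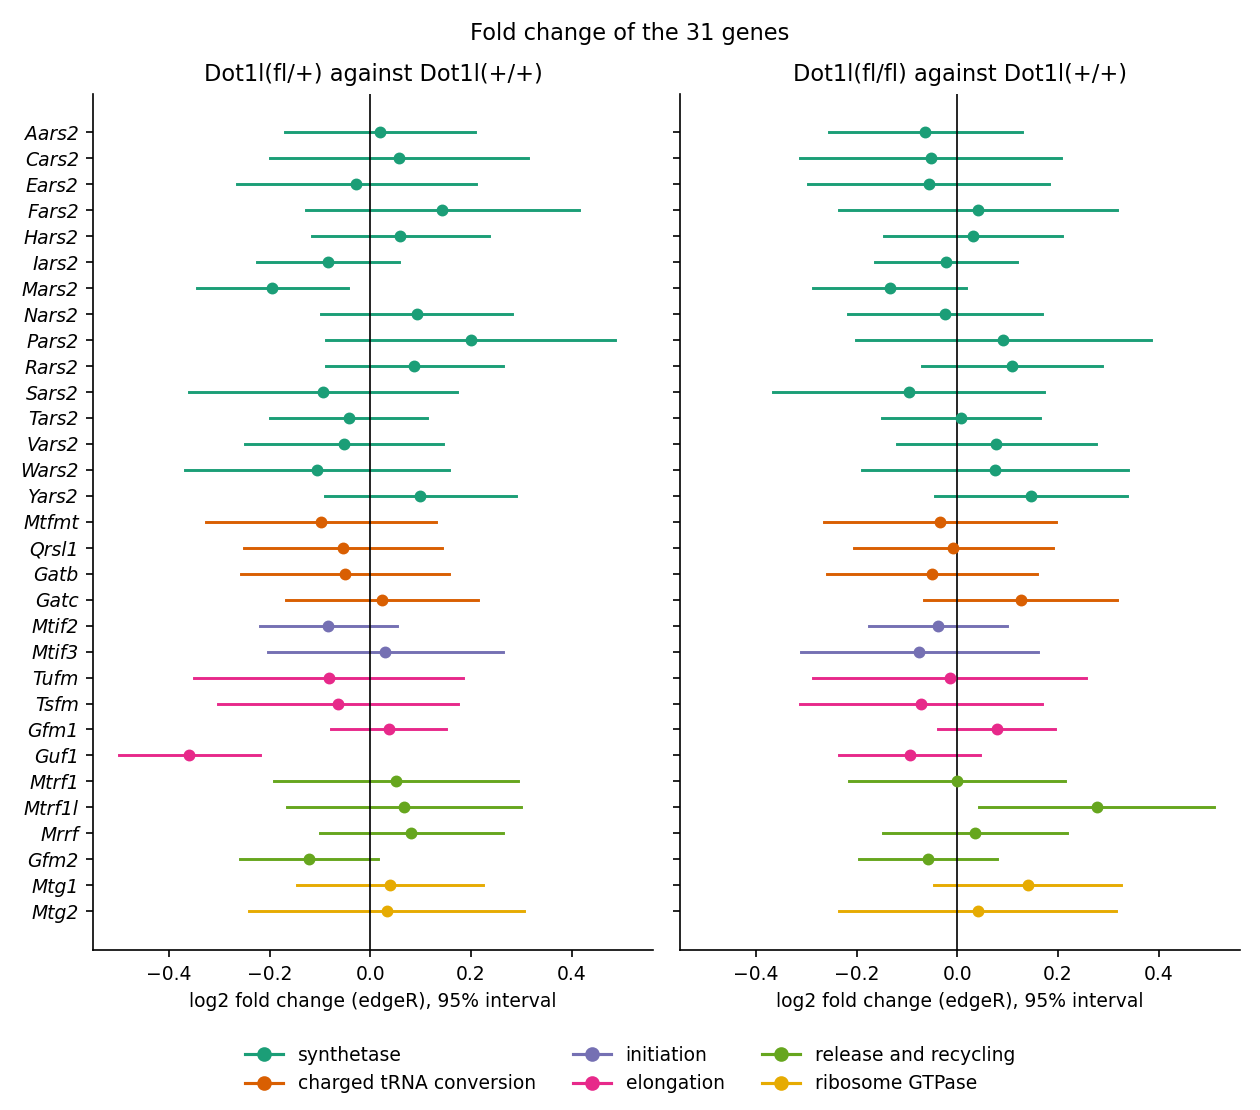
Log2 fold change of each of the 31 genes against Dot1l(+/+), for Dot1l(fl/+) on the left and Dot1l(fl/fl) on the right, with bars for the 95% interval and colours for the role of the gene. The intervals of Guf1 and Mars2 lie wholly below 0 on the left and that of Mtrf1l wholly above 0 on the right, while every other interval crosses 0.

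Levels of different genes were compared per length, as CPM per kb of exons, in the 3 control libraries. Gfm1, the translocase that moves the ribosome along the mRNA, was highest at 14.5 ± 0.385 (SD, n = 3). Gatc, a subunit of the amidotransferase that turns glutamate on a tRNA into glutamine, followed at 11.7 ± 0.963, and Mtif2, the initiation GTPase, at 10.5 ± 0.385. Wars2, the tryptophanyl-tRNA synthetase, was lowest at 1.26 ± 0.0783. The range over the 31 genes was thus 11.5-fold, and of the 30 pairs of neighbours in the order 24 overlapped in their libraries.

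Among the synthetases, Hars2 (histidine, 7.87 CPM per kb) and Iars2 (isoleucine, 7.18) were highest, and Pars2 (proline, 1.83), Cars2 (cysteine, 1.64) and Wars2 lowest. The median of the 15 synthetases was 3.44 CPM per kb, and that of the other 16 genes 3.87. Guf1 was in place 8 with 6.34 ± 0.443 CPM per kb (SD, n = 3). With the length of the longest transcript in place of all exons Guf1 came in place 6 and Gatc in place 3, and 11 of the 31 genes moved by more than 4 places, so the middle of the order depends on which exons are counted.

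**Figure D2:**
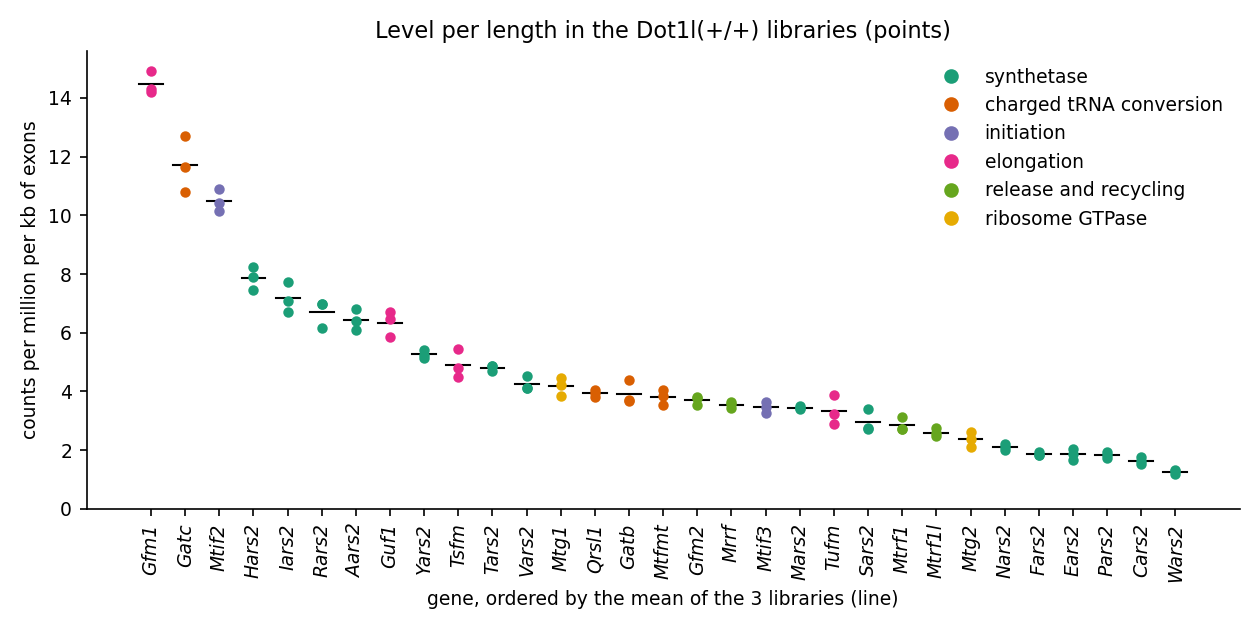
Level per length of the 31 genes in the 3 Dot1l(+/+) libraries, in CPM per kb of exons. Points are libraries, lines their means and colours roles. Gfm1, Gatc and Mtif2 stand above the rest, and Wars2 is lowest at 1.26 CPM per kb.

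For 12 synthetases the count files also held a separate gene for the cytosolic enzyme of the same amino acid. The cytosolic gene was higher per length in 12 of 12 pairs in controls, by a median of 3.51-fold. The ratio ran from 1.27 for Tars over Tars2 (threonine) to 29.5 for Nars over Nars2 (asparagine). These pairs were named after their values were seen. In heterozygotes the same ratios were 1.34 and 28.5, and in homozygotes 1.25 and 30.4.

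Of the 15 synthetases, 8 had a log2 fold change above 0 in heterozygotes against controls and 7 below, with a median of 0.02 and a range from -0.19 to 0.20. In homozygotes against controls, 8 were above and 7 below, with a median of 0.0077. Mars2 joins methionine to its tRNA, which serves both the start codon and later codons. It lies on chr1:55237177-55248470 (GRCm38, plus strand) with a single exon of 11294 bases, the longest exon length of the 31. Mars2 was at 38.5, 39.4 and 38.6 CPM in controls, at 36.3, 31.7 and 33.96 in heterozygotes, and at 33.0, 37.0 and 36.3 in homozygotes. All 6 libraries with a floxed allele were below all 3 controls. The log2 fold change was -0.19 ± 0.07 (SE) in heterozygotes, with an unadjusted p of 0.0154 and an adjusted p of 0.541 in edgeR. In homozygotes it was -0.13 ± 0.07, with an adjusted p of 0.999 in edgeR, and lay between -0.17 and -0.08 with each library left out. The unadjusted p of Mars2 in heterozygotes was above 0.05 without control replicate 2 and without heterozygote replicate 2. With a correction for exon length and GC content the value in heterozygotes was -0.07 (adjusted p = 0.871 in edgeR).

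Yars2, the tyrosyl-tRNA synthetase (chr16:16302965-16309640), was at 16.5, 17.1 and 16.2 CPM in controls, at 16.1, 17.9 and 19.3 in heterozygotes, and at 18.3, 18.5 and 18.3 in homozygotes. The homozygote libraries lay above the controls, while those of heterozygotes spread across both. Its log2 fold change in homozygotes was 0.15 ± 0.09 (SE), with an adjusted p of 0.999 in edgeR. The other 13 synthetases (Aars2, Cars2, Ears2, Fars2, Hars2, Iars2, Nars2, Pars2, Rars2, Sars2, Tars2, Vars2 and Wars2) had an unadjusted p above 0.05 in all 3 comparisons.

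The proteins that convert a charged tRNA are Mtfmt, which formylates the methionine on the initiator tRNA, and the amidotransferase subunits Qrsl1, Gatb and Gatc. Their log2 fold changes lay between -0.10 and 0.02 in heterozygotes and between -0.05 and 0.13 in homozygotes, each against controls, with the highest value in both from Gatc. Of the subunits of the amidotransferase, Gatc was at 11.7 CPM per kb in controls, above Qrsl1 at 3.94 and Gatb at 3.92, which overlapped. Of the initiation factors, Mtif2 was at a mean of 40.6, 38.3 and 39.5 CPM in controls, heterozygotes and homozygotes, with SDs of 1.49, 2.19 and 0.66. Mtif3, which helps to keep the ribosomal subunits apart before a start, was at 17.7, 18.1 and 16.8 CPM, with SDs of 1.01, 2.59 and 1.07. In both cases the genotypes overlapped. Mtif3 shares 1505 bases of exon, 29.4% of its own, with Gtf3a on the opposite strand.

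Guf1 lies on chr5:69556923-69575973 (GRCm38, plus strand) and its exons span 10372 bases. GC content is given throughout for the longest transcript, and that of Guf1 was 37.3%, the lowest of the 31. Guf1 was at 60.6, 67.2 and 69.5 CPM in controls. In heterozygotes it was at 53.9, 52.4 and 47.7 CPM, and in homozygotes at 61.8, 60.8 and 62.4 CPM. All 3 libraries of heterozygotes were below the other 6 libraries, whereas homozygotes lay within the range of the controls. Heterozygote replicate 2, in which the hypothalamic markers were at 1.55 CPM, lay between the 2 libraries in which they were high.

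The log2 fold change of Guf1 in heterozygotes against controls was -0.36 ± 0.07 (SE), with an unadjusted p of 9.03e-05, place 3 of the 17671 genes by p, and an adjusted p of 0.532 in edgeR. In homozygotes against controls it was -0.09 ± 0.07 (adjusted p = 0.999 in edgeR), and between -0.15 and -0.05 with each library left out. In homozygotes against heterozygotes, the test of the difference between the mutant genotypes, it was 0.26 ± 0.07, with an unadjusted p of 0.00131 and an adjusted p of 0.564 in edgeR. The call in heterozygotes depended on the method. DESeq2 on all 9 libraries gave -0.36 with an adjusted p of 0.0128, DESeq2 on the 6 libraries gave 0.022, and edgeR without a filter 0.000267, where 0.242% and 0.886% of all genes were called, while the adjusted p lay between 0.147 and 0.867 when each library was left out in edgeR. With a correction for exon length and GC content the value in heterozygotes against controls was -0.22 ± 0.05 (SE). Its unadjusted p was 0.00142 and its adjusted p 0.702 in edgeR, and Guf1 was still the lowest of the 31 genes. The corrected value was 0.17 ± 0.05 (SE, adjusted p = 0.743 in edgeR) in homozygotes against heterozygotes and -0.05 ± 0.05 in homozygotes against controls. Guf1 shares 1022 bases of exon, 9.85% of its own, with Gnpda2 on the opposite strand. Gnpda2 was at means of 34.2, 34.8 and 34.2 CPM in the 3 genotypes, with a log2 fold change of 0.02 in heterozygotes.

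**Figure D3:**
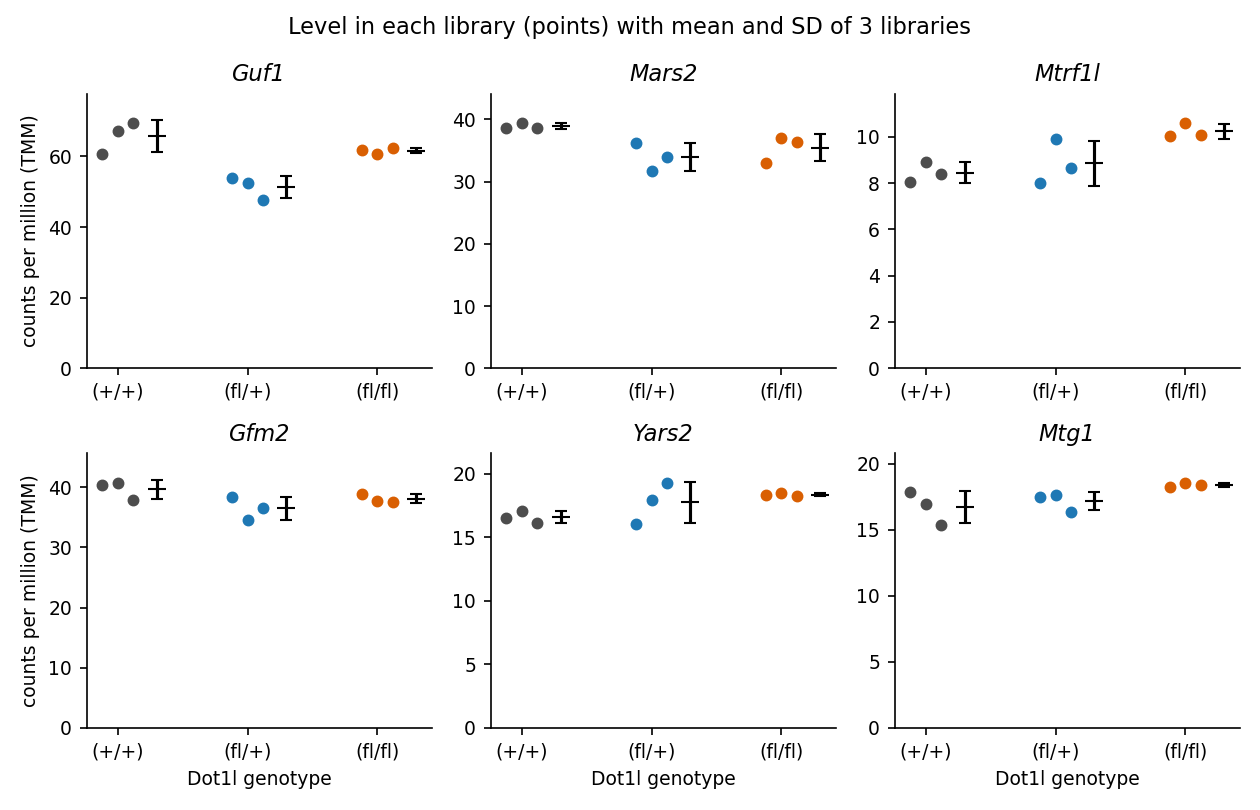
Level of Guf1, Mars2, Mtrf1l, Gfm2, Yars2 and Mtg1 in each library, in CPM on axes that start at 0. Points are libraries, and the bar beside them gives mean and SD of 3 libraries. For Guf1 the 3 libraries of Dot1l(fl/+), at 47.7 to 53.9 CPM, lie below the other 6, and for Mars2 the 3 controls lie above the other 6.

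The other elongation factors were Tufm, which brings the charged tRNA to the ribosome, Tsfm, which reloads Tufm with GTP, and Gfm1. Gfm1 was at 62.8, 65.9 and 63.2 CPM in controls, at 64.6, 69.0 and 63.1 in heterozygotes, and at 68.4, 67.6 and 66.5 in homozygotes. Its log2 fold change was 0.04 ± 0.05 (SE) in heterozygotes and 0.08 ± 0.05 in homozygotes, against -0.36 for Guf1 in heterozygotes. Tsfm was at means of 14.2, 13.6 and 13.6 CPM in the 3 genotypes.

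Tufm (chr7:126487361-126490731, GRCm38, plus strand) was listed at 8.28, 6.87 and 6.12 CPM in controls, at 6.54, 6.68 and 6.79 in heterozygotes, and at 7.32, 7.16 and 6.43 in homozygotes. A processed pseudogene of Tufm, Gm9755 (chr8:67514235-67515590, minus strand), was listed at 23.7, 22.5 and 23.3 CPM in controls, at 24.7, 26.2 and 29.7 in heterozygotes, and at 26.5, 25.5 and 25.0 in homozygotes. Over all libraries Tufm had 1502 counts and Gm9755 5512. Gm9755 was thus 2.86 to 4.38 times as high as Tufm in every library.

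The sequences are nearly the same. Along all 1356 bases of Gm9755 the coding transcript Tufm-201 (1679 bases) differs at 2 positions, G466A and C648T, which are 182 bases apart. Positions are counted from 1 at the 5′ end of Gm9755, with the base of Tufm first. The windows below are shown because they hold the only bases at which Gm9755 and Tufm-201 differ within the shared stretch. Against a second transcript, Tufm-202, the alignment also held 1 gap. They are from the spliced coding part of Tufm-201 in GENCODE release M21, and the capital marks the base that differs, at chr7:126488710 in exon 4 and chr7:126488974 in exon 5 of Tufm.
Tufm at 466: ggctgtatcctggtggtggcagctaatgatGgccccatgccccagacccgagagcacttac
Gm9755 at 466: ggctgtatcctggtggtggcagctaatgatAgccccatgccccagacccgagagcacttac
Tufm at 648: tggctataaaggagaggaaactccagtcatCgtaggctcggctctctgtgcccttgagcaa
Gm9755 at 648: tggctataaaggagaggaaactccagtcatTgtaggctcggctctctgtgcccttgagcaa

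Of the 1679 bases of Tufm-201, 323 lie outside the stretch shared with Gm9755. How reads that match both genes were placed is not given in the sources used here, so the level of Tufm itself is uncertain. The log2 fold change of Tufm was -0.08 ± 0.12 (SE) in heterozygotes and -0.02 ± 0.13 in homozygotes, and that of Gm9755 0.22 ± 0.08 (unadjusted p = 0.0172 in edgeR) and 0.15 ± 0.08. With the counts of both genes added, chosen after seeing the data, the sum was at 30.2 ± 1.47 CPM in controls, 33.5 ± 2.71 in heterozygotes and 32.6 ± 1.19 in homozygotes (SD, n = 3). Its log2 fold change was 0.15 ± 0.07 (adjusted p = 0.611 in edgeR) in heterozygotes and 0.11 ± 0.07 in homozygotes, so the direction turned. Per kb of the exons of Tufm the sum was at 14.2 in controls, place 2 of the 31 genes after Gfm1, while Tufm alone was in place 21. Mrrf has a copy as well, Gm6374, which is 97.1% identical over 789 bases and held 60 to 101 counts per library.

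**Figure D4:**
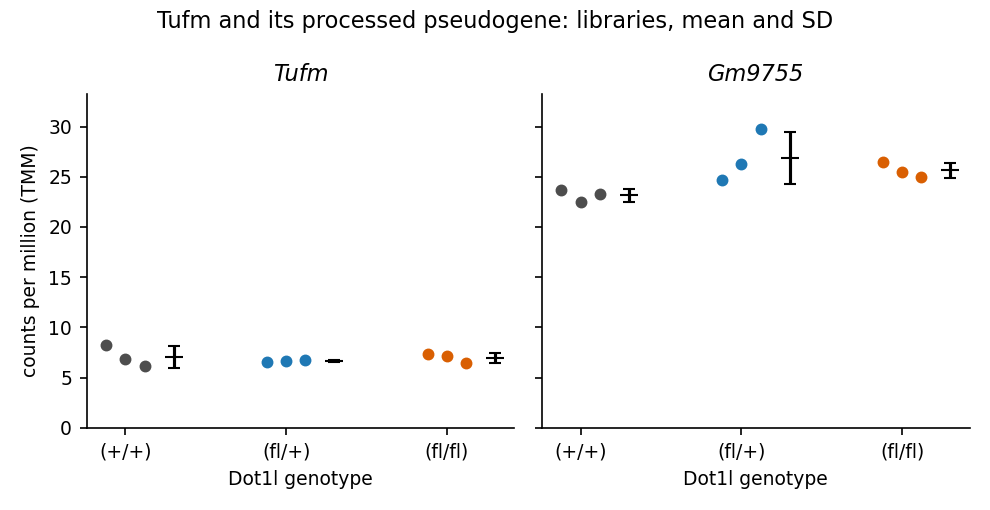
Level of Tufm on the left and of its processed pseudogene Gm9755 on the right in each library, in CPM on the same axis. Points are libraries, and the bars give mean and SD of 3 libraries. Gm9755 lies at 22.5 to 29.7 CPM and Tufm at 6.12 to 8.28 CPM.

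Release and recycling are served by the release factors Mtrf1 and Mtrf1l, which read stop codons, and by Mrrf and Gfm2, which split the ribosome afterwards. Mtrf1l (chr10:5811887-5823910, minus strand) was at 8.04, 8.93 and 8.38 CPM in controls, at 7.99, 9.89 and 8.66 in heterozygotes, and at 10.04, 10.6 and 10.07 in homozygotes. All 3 libraries of homozygotes were above the other 6. The log2 fold change in homozygotes against controls was 0.28 ± 0.11 (SE), with an unadjusted p of 0.0238 and an adjusted p of 0.999 in edgeR. Against heterozygotes it was 0.21 ± 0.11 (adjusted p = 0.778 in edgeR). The unadjusted p in homozygotes against controls was above 0.05 without control replicate 1, control replicate 3 or homozygote replicate 2. The related Mtrf1 was at 6.87, 7.11 and 6.85 CPM in the 3 genotypes.

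Gfm2, related to Gfm1 and with 10685 bases of exon the second longest of the 31, was at 40.4, 40.8 and 37.9 CPM in controls, at 38.3, 34.5 and 36.6 in heterozygotes, and at 39.0, 37.7 and 37.6 in homozygotes. The genotypes overlapped, and the log2 fold change in heterozygotes was -0.12 ± 0.06 (SE, adjusted p = 0.631 in edgeR). Mrrf was at 17.7, 18.7 and 18.1 CPM. Of the GTPases of the ribosome, which act on its large subunit, Mtg1 was at 17.8, 17.0 and 15.4 CPM in controls, at 17.5, 17.7 and 16.4 in heterozygotes, and at 18.3, 18.6 and 18.4 in homozygotes. The homozygote libraries of Mtg1 were above the other 6, with a log2 fold change of 0.14 ± 0.09 (SE) against controls and an adjusted p of 0.999 in edgeR. This value lay between 0.08 and 0.19 with each library left out, lowest without control replicate 3. Mtg2 was at 14.1, 14.5 and 14.5 CPM.

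The fold changes against controls ran with exon length. Guf1, Mars2 and Gfm2, the 3 genes with the most exon bases, were the 3 lowest of the 31 in heterozygotes, and the next longest gene, Iars2, had 8885 bases. Across the 31 genes the log2 fold change and the log2 exon length had a Pearson's r of -0.43 and a Spearman's rho of -0.29, which is a description across genes that share the same libraries. With each library left out r lay between -0.59 and -0.28 and rho between -0.52 and -0.13, both strongest without control replicate 1 and weakest without control replicate 3. Over 17612 genes r was -0.21. The other 28 genes had a median log2 fold change of 0.03, with 16 above 0. With the correction for length and GC content r was -0.18 across the 31 genes and -0.0040 over all genes. The values in homozygotes, set against the same control libraries, had r = -0.44 and rho = -0.39 across the 31 genes, and r = -0.12 over all genes. There r lay between -0.63 and -0.25 and rho between -0.60 and -0.19 with each library left out, again strongest without control replicate 1 and weakest without control replicate 3, and r was -0.35 with the correction.

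The trend was present over long genes in general. Of the 1329 genes tested with exons at least as long as those of Guf1, with Guf1, Gfm2 and Mars2 among them, 75.5% had a log2 fold change below 0 in heterozygotes, with a median of -0.05, and 10.7% were lower at an unadjusted p under 0.05, against 4.07% of all genes. Among the 149 of these with a GC content under 40%, the median was -0.12 and 28.9% were lower at that level. Guf1 had the lowest value of the 149. In homozygotes 68.2% of the 1329 genes were below 0, with a median of -0.03, and 3.54% were lower at that level against 1.72% of all genes. The median of the 149 genes was also -0.03 there, and 0.671% were lower. What part the trend has in the value of Guf1 was not tested beyond the corrected fit above.

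**Figure D5:**
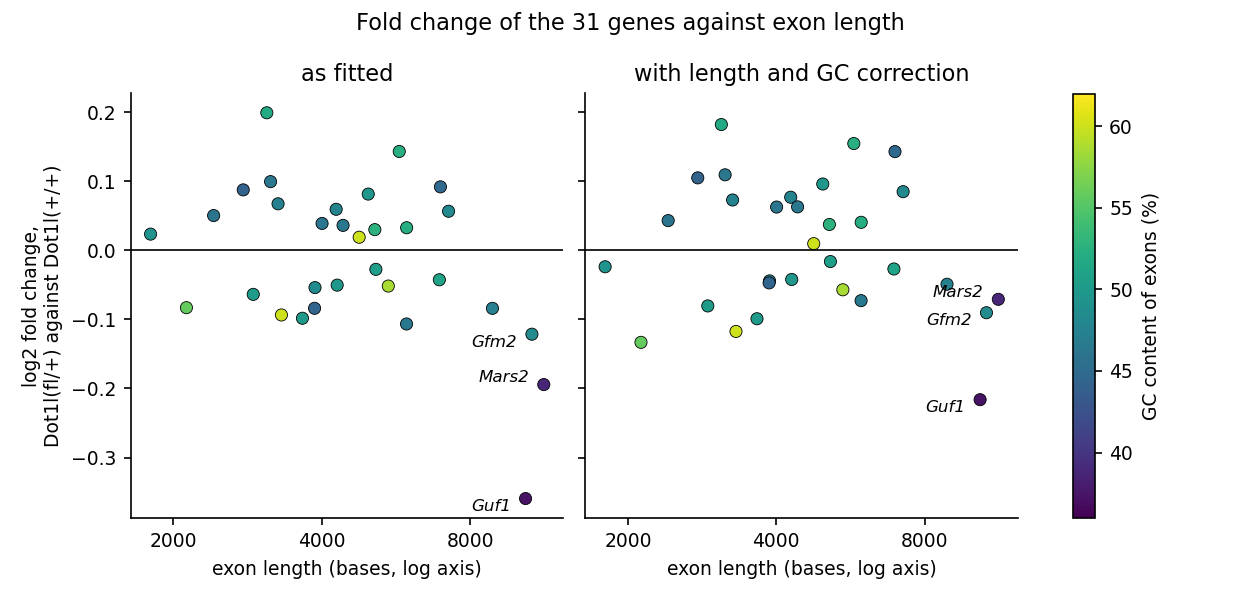
Log2 fold change in Dot1l(fl/+) against Dot1l(+/+) of the 31 genes against their exon length on a log axis, as fitted on the left and with the correction for length and GC content on the right. Colour gives the GC content of the longest transcript. Guf1 moves from -0.36 to -0.22 and Mars2 from -0.19 to -0.07, and Guf1 is lowest in both.

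Genes of neighbouring steps were counted in the same way. None of 18 cytosolic synthetases, 22 genes of mitochondrial tRNA processing and 20 of mitochondrial mRNA handling had an unadjusted p under 0.05 in heterozygotes against controls in edgeR, against 8.39% of all genes, and the medians were 0.03, -0.03 and 0.02. Of these 3 lists 1 gene was lower at that level in homozygotes against controls, Fastkd1 of mRNA handling, at -0.16 ± 0.07 (SE), which is 5.0% of its list against 3.93% of all genes. Between homozygotes and heterozygotes the 1 gene was Ptcd1, of the same list, lower in homozygotes at -0.16 ± 0.08 (SE), 5.0% against 6.48% of all genes. Of 23 ribosome assembly genes none had such a p in heterozygotes in edgeR. Mrm3, a methyltransferase of the large ribosomal RNA, was lower in homozygotes than in controls at -0.28 ± 0.10 (SE), 4.35% of the list. Mrm3 at -0.24 ± 0.10 and Rcc1l at -0.21 ± 0.10 (SE) were lower in homozygotes than in heterozygotes, 8.70% of the list against 6.48% of all genes. Lars2, which is no member, was at 0.84 ± 0.16 in heterozygotes (SE, adjusted p = 0.540 in edgeR), and its counts carry the doubt given above.

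The mitochondrial ribosome is built from its own set of proteins. Of 77 genes for these tested, 61 had a log2 fold change above 0 in heterozygotes and 16 below, with a median of 0.09. Over all genes 48.9% were above 0. At an unadjusted p under 0.05 in edgeR 9 of the 77 were higher and 0 lower, 11.7% against 8.39% of all genes. Mrps18c at 0.63 ± 0.14 and Mrps21 at 0.71 ± 0.19 (SE) had the lowest p. Over all 78 genes of the list, 1 of which was not tested, the sum was 1738, 1750 and 1718 CPM in controls, 1728, 1932 and 1848 in heterozygotes, and 1772, 1802 and 1777 in homozygotes, so heterozygote replicate 1 lay within the controls. Of the 77 genes 54 were above 0 in homozygotes against controls, with a median of 0.04, and 3 were higher and 0 lower at that level in edgeR, 3.90% against 3.93% of all genes. Against heterozygotes 17 were above 0 and 60 below in homozygotes, with a median of -0.06, and 1 was lower at that level, Mrps34, 1.30% against 6.48% of all genes. Over all genes 50.4% were above 0 in homozygotes against controls and 50.5% against heterozygotes. These values hold no correction for exon length and GC content, and the part of that trend in them was not tested.

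The genes of the mitochondrial genome, the mRNAs that these factors translate, had 7 members that passed the filter. In heterozygotes against controls 2 were above 0 and 5 below, with a median of -0.05, and in homozygotes against controls 7 were above 0, with a median of 0.11, and 0 had an unadjusted p under 0.05 in edgeR in either. All 7 were above 0 in homozygotes against heterozygotes, with a median of 0.19, and 4 had such a p, 57.1% against 6.48% of all genes. All 13 genes of this list summed to 30020, 34380 and 36000 CPM in controls, to 31490, 36270 and 28610 CPM in heterozygotes, and to 38680, 36040 and 33850 CPM in homozygotes. Heterozygote replicate 2 thus lay within the range of homozygotes, and replicates 1 and 3, the libraries with high hypothalamic markers, lay below it. Control replicate 1, at 30020 CPM and with those markers at 8.37 CPM, lay below it as well. The part of those markers in the difference was not tested. No gene of the lists above passed an adjusted p of 0.05 in edgeR on all 9 libraries with the filter, with or without the block. Without a filter edgeR called Lars2, Mrps18c and Mrps21 in heterozygotes against controls and Lars2 and mt-Nd5 in homozygotes against heterozygotes, and DESeq2 on the 6 libraries called Lars2 in heterozygotes against controls. With the filter but without heterozygote replicate 3, edgeR called Lars2 as lower in homozygotes than in heterozygotes (adjusted p = 0.0461 in edgeR).

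No marker of a cell type passed an adjusted p of 0.05 in edgeR on all 9 libraries with the filter and without a block. Other settings called the dopamine neuron markers Slc6a3, Th and Slc18a2, all lower in homozygotes than in controls. With the block they were the 3 genes called, with an adjusted p of 0.0258, 0.0258 and 0.0483 in edgeR. EdgeR also called them without heterozygote replicate 2, without heterozygote replicate 3, on the libraries compared alone and without a filter, and so did DESeq2 on all 9 libraries and on those compared. Ddc, of the same list, was called in DESeq2 on the libraries compared and in edgeR without a filter. The hypothalamic markers Hcrt, Pmch and Trh were called in edgeR as higher in heterozygotes than in controls without heterozygote replicate 2 (adjusted p = 0.0117, 0.0117 and 0.0327 in edgeR), and Pmch with the block as lower in homozygotes than in heterozygotes. Between these genotypes DESeq2 on all 9 libraries called Th, Slc6a3 and Trh, and edgeR without a filter called further markers in each comparison. Of 10 dopamine neuron markers, 3 were lower in heterozygotes and 8 in homozygotes at an unadjusted p under 0.05, against 8.39% and 3.93% of all genes, and they summed to 627 to 692 CPM in controls, 491 to 632 CPM in heterozygotes and 473 to 504 CPM in homozygotes. Of the 10, 6 were lower in homozygotes than in heterozygotes at that level, against 6.48% of all genes. Guf1 had its lowest level in heterozygotes, and the dopamine neuron markers theirs in homozygotes. Of 8 oligodendrocyte markers 3 were higher in heterozygotes than in controls at that level, 37.5% against 8.39% of all genes. Of the 8, 6 were above 0 there, with a median of 0.13. In homozygotes against heterozygotes 4 were lower at that level, 50.0% against 6.48% of all genes, and the median of the 8 was -0.14. Guf1 was lower and then higher in the same comparisons, and the part of these markers in its value was not tested. Their levels had sums of 10200 to 11250, 10360 to 11720 and 10420 to 10920 CPM in the 3 genotypes, which overlapped. Of 7 microglia markers 1 was higher in heterozygotes and 2 in homozygotes at an unadjusted p under 0.05 in edgeR, each against controls. These were 14.3% and 28.6% of the list, against 8.39% and 3.93% of all genes. Of the 7, 5 were above 0 in heterozygotes and 7 in homozygotes. Their sums were 325 to 339, 329 to 387 and 361 to 385 CPM, so those of homozygotes lay above the controls. Of the astrocyte markers 1 of 7 was higher in heterozygotes at that level, 14.3% against 8.39% of all genes. Of the endothelial, GABA neuron and glutamate neuron markers 0 of 6, 0 of 3 and 0 of 2 had such a p in any comparison in edgeR. No marker was at 0 in all libraries. The 31 genes are used by every cell type, and in whole tissue fewer cells of a type and less RNA per cell cannot be told apart. The part of the cell types in the values of Guf1, Mars2 and Mtrf1l was not tested.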

How the data were processed

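The authors isolated RNA from dissected midbrain, made directional libraries, trimmed the reads and mapped them to GRCm38.p4. The values the authors deposited are raw counts by Ensembl gene, with 1 file for each of 9 libraries. The submitters' processing notes name bcl2fastq 2.17, Trimmomatic 0.30 and DESeq2 1.10.1. The aligner, the counter and its strand setting are not given in the sources used here. The authors' own DESeq2 comparisons (means, fold changes, p-values) were not used. Symbols, lengths and sequences came from GENCODE M21, which named 47224 of the 47729 genes, with 99.9% of the counts.

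Counts were fitted with edgeR 4.0.16 in R 4.3.3 (TMM, filterByExpr, quasi-likelihood test, all 9 libraries, genotype as the only factor), with Benjamini-Hochberg adjustment over 17671 genes. The common biological coefficient of variation was 8.81%, and TMM factors lay between 0.988 and 1.01. DESeq2 1.42.0 was an alternative. Figures were drawn with matplotlib 3.10.9 under Python 3.11.15, from tables made with pandas 2.3.3.

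Values per library are given for Guf1, for members with an unadjusted p under 0.05 in any comparison, and for those with the next lowest p up to 6 genes. Gfm1, Tufm, Gm9755 and Gnpda2 were added after their values were seen. From each list at most 4 genes with such a p were named. The members, lists and tests were chosen with earlier results of these data known. Of 2 synthetases shared by cytosol and mitochondria 0 had an unadjusted p under 0.05 in any comparison in edgeR. Of 9 cytosolic elongation and release factors 1 (Eef1b2, higher) had such a p in heterozygotes (11.1%, against 8.39% of all genes) and 1 in homozygotes (Eef1b2, higher, against 3.93%), each against controls, and 2 were lower in homozygotes against heterozygotes (Eef1b2 and Eef1d, 22.2% against 6.48%). Without a filter edgeR called Eef1b2 in heterozygotes.

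The study's methods state that pools were built from litter-matched sets of the 3 genotypes, without saying that the replicate numbers mark these sets. The deviations of same-numbered libraries correlated at 0.0222 to 0.317, with 6 of 9 pairs over 0.1, and those of other pairs at -0.267 to 0.108. The main test had no block, and the fit with the number as a block is given beside it.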

Additional observations from a re-analysis of the deposited data

How the results depend on the processing

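The 0 genes of edgeR at an adjusted p of 0.05 became 7 in heterozygotes against controls, 3 in homozygotes against controls and 14 in homozygotes against heterozygotes with DESeq2 on all 9 libraries, 42, 8 and 8 with DESeq2 on the libraries compared, and 251, 118 and 164 with edgeR without a filter. EdgeR on the libraries compared gave 1 and 4 in the comparisons with controls. At an unadjusted p under 0.05 edgeR had 1483, 694 and 1145 genes. Leaving out each library gave 0 to 5, 0 to 4 and 0 to 12 genes at the adjusted threshold, with the highest without heterozygote replicate 2, which in homozygotes against controls was matched without heterozygote replicate 3. The only member called in any alternative was Guf1, at -0.36 with DESeq2 on all 9 libraries (adjusted p = 0.0128), at -0.36 with DESeq2 on the libraries compared, at -0.35 without a filter, and at 0.26 in homozygotes against heterozygotes without a filter (adjusted p = 0.0469). The causes were not tested.

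Members with an unadjusted p under 0.05 in heterozygotes fell from 2 to 1, Guf1, with the length and GC correction, and lay between 1 and 4 with each library left out (4 without heterozygote replicate 1, 1 without control replicate 2 or heterozygote replicate 2). In homozygotes against controls the 1 became 0 with DESeq2 and 2 with edgeR on the libraries compared, and 0 to 1 with each library left out. It was Guf1 and not Mtrf1l without control replicate 1, and 0 without control replicate 3 or homozygote replicate 2. In homozygotes against heterozygotes the 1 became 1 to 2, the latter without heterozygote replicate 2. The median of the members became -0.0162 with the length and GC correction in heterozygotes and 0.0051 in homozygotes against heterozygotes, where adding the counts of Gm9755 to Tufm, an alternative chosen after seeing the data, gave 0.0211. With each library left out the medians lay between -0.0308 and 0.0236, between -0.0081 and 0.0203, and between 0.0122 and 0.0457.

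Single fold changes were followed for 7 of the 31 genes (Guf1, Mars2, Mtrf1l, Gfm2, Yars2, Mtg1 and Tufm), not for the others. Tufm went to 0.15, 0.11 and -0.0394 in the 3 comparisons with Gm9755 added. Without control replicate 1 it was 0.0395 in heterozygotes and 0.11 in homozygotes, and with each library left out it lay between -0.18 and 0.0395 and between -0.11 and 0.11. In heterozygotes Mtrf1l lay between -0.02155 and 0.14 and Mtg1 between -0.0163 and 0.08635 with each library left out. In homozygotes against heterozygotes Yars2 lay between -0.01996 and 0.11, and Mars2 was -0.0235 with the length and GC correction. Guf1 kept its direction in all 19 alternatives of each comparison. These alternatives refit the same libraries, and adding Gm9755 to Tufm leaves the counts of Guf1 as they were.

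Litter-matched pools are part of the study's design, but whether the replicate numbers mark them is not stated. In 6 of 9 libraries the best correlation was with the same number in both other genotypes. With the replicate block Guf1 was at -0.36 in heterozygotes (adjusted p = 0.270 in edgeR) and at 0.26 in homozygotes against heterozygotes, the counts of called genes were 0, 3 and 3, and the members with an unadjusted p under 0.05 were 2, 1 and 1. With the block and the length and GC correction the counts of called genes were 0, 3 and 4, those members 1, 1 and 2, their medians -0.0148 in heterozygotes and 0.0040 in homozygotes against heterozygotes, and Mars2 -0.0228 in the latter.

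Since replicates are pools, p-values measure the spread between pools. With 3 per genotype the standard errors of the members lay between 0.05 and 0.14 on the log2 scale, and Guf1 in heterozygotes, at -0.36 ± 0.07, was not called in edgeR, so smaller changes may go uncalled at this number of pools.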

Other observations

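Of the 31 genes, 14 share exon bases with another gene on the opposite strand and 0 with a gene on the same strand. The largest shares were 29.4% of the exons of Mtif3 with Gtf3a and 22.9% of those of Iars2 with Rab3gap2, a gene at 129.5 CPM in controls against 63.8 CPM for Iars2. Gtf3a was at 14.2, 16.1 and 15.0 CPM in controls, heterozygotes and homozygotes. The library kit marks strand, and the strand setting of the counting is not given in the sources used here.

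Gm6374, the processed pseudogene that resembles Mrrf (chr1:83314513-83315300, GRCm38), was at 3.17, 2.92 and 2.89 CPM in controls, at 3.64, 3.36 and 3.21 in heterozygotes, and at 3.96, 3.99 and 3.64 in homozygotes. It was higher than all 3 controls in 6 of 6 libraries with a floxed allele, at log2 fold changes of 0.19 ± 0.14 (SE) and 0.37 ± 0.14, with adjusted p of 0.745 and 0.999 in edgeR. Gm9755 likewise lay above all 3 controls in 6 of 6 libraries, while Mrrf and Tufm overlapped between the genotypes. Against controls, 13.3% of all genes did not overlap in heterozygotes and 10.3% in homozygotes. How reads that match a pseudogene and its parent gene were placed is not given, so their levels may not be separate measures. Both pseudogenes were named after their values were seen.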
